A study of Mus musculus with 8 samples.

Results

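AMP-activated protein kinase (AMPK) and the kinases that switch it on were described here as 10 genes, all of which were found by gene symbol among the 49492 rows of the deposited table. They were the catalytic subunits Prkaa1 and Prkaa2, the scaffold subunits Prkab1 and Prkab2, the nucleotide-binding subunits Prkag1 and Prkag2, the upstream kinases Stk11 and Camkk2, and Strada and Cab39, the partners of Stk11. All 10 passed the filter on low values (at least 1 in at least 2 samples), as did 16232 genes in all. RNA was sequenced from mouse embryonic fibroblasts (MEFs), cultured cells of the embryo's connective tissue, in 8 libraries that formed 4 groups of 2. The cells were Pontin f/f MEFs, made by the 3T3 protocol, in which Cre virus deleted the endogenous gene for the chromatin remodeller Pontin (Ruvbl1) after a Flag-tagged Pontin had been brought in with a lentivirus and selected with hygromycin. In the WT groups this was wild-type Pontin, and in the RA groups it was Pontin with 2 arginines replaced by alanine. Each line was kept either in normal medium with serum or in medium without glucose, with dialyzed serum. Each Pontin form was carried by a stably expressing line, so line and Pontin form cannot be told apart. The length of the starvation was not given for these libraries, and although the methods say in general that experiments were repeated independently, they do not say whether the 2 libraries of a group came from separate cultures, so the p-values measure only the spread between these samples.

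AMPK is the cell's energy sensor, a trimer of 1 catalytic alpha, 1 scaffold beta and 1 gamma subunit that binds AMP, ADP and ATP. When energy runs low, AMP binding favours phosphorylation of the alpha subunit by LKB1 (Stk11), which works in a complex with the pseudokinase STRADA (Strada) and the scaffold MO25 (Cab39), while CaMKK2 (Camkk2) phosphorylates the same site in response to calcium. Active AMPK restrains fat and sterol synthesis and starts autophagy through ULK1, and in glucose-starved fibroblasts it has been placed upstream of FOXO3a, SKP2 and CARM1. The values below are RNA amounts, so they say nothing of AMPK phosphorylation or activity. In such bulk samples, fewer cells of a type and less RNA per cell cannot be told apart.

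The reads recovered from the values summed to 43205841 to 56363034 per library over all rows. A read can enter several genes and mates may have been counted separately, so these sums are not numbers of sequenced fragments. Values are given as CPM, reads scaled to a common library size that the authors adjusted per sample. The fibroblast marker list summed to 9756 to 9829 CPM in WT in normal medium, 5128 to 5221 in WT starved, 9645 to 9965 in RA in normal medium and 6760 to 6778 in RA starved. Within that sum most markers fell under starvation. The log2 differences were -4.09 in WT and -2.38 in RA for Col3a1, a collagen gene. They were -3.04 and -1.29 for Col1a1, -2.95 and -1.15 for Col1a2 and -2.71 and -1.47 for Pdgfra. For Vim they were -0.57 and -0.91, and for Pdgfrb -0.38 and -0.030. Dcn, the proteoglycan decorin, rose by 0.30 and by 1.302, and Fn1, fibronectin, moved by 0.033 and by 0.42. The values of -0.030 and 0.033 did not pass the test used below. Endothelial markers summed to 2.52 to 3.39 CPM in WT in normal medium, 8.92 to 9.43 in WT starved, 2.02 to 3.43 in RA in normal medium and 5.99 to 6.34 in RA starved. The endothelial rise in WT was in Kdr (2.26 and 1.73 CPM to 6.24 and 6.54) and Tek (0.304 and 0.242 to 3.06 and 2.32). Pecam1 (0.478 and 0.302 to 0.0838 and 0.0548) and Cdh5 (0.348 and 0.242 to 0.0419 and 0) fell there, at 22 reads or fewer. Leukocyte markers summed to 4.18 to 4.59 CPM in WT starved, mostly Cd68 (4.51 and 4.13), and to 1.98 to 2.83 in the other groups. Epithelial markers summed to 1.16 to 1.25 CPM in RA starved, mostly Cdh1 (1.18 and 1.16), and to at most 0.564 in the others. Cd3e, Krt5 and Krt14 were at 0 in every library. These marker sums moved with the medium, the line or both, and their part in the results below was not tested. The Ruvbl1 row, which cannot tell one Pontin form from the other, read 28.4 and 27.6 CPM in WT in normal medium, 27.9 and 28.4 in WT starved, 36.8 and 32.0 in RA in normal medium and 45.05 and 42.9 in RA starved.

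In WT cells, the values of Prkaa1, Prkag1 and Prkag2 and of the kinase Camkk2 fell under glucose starvation, and that of Cab39 rose. The values of Prkaa1 and Prkag1 may include reads of their antisense genes, as described below. In RA cells the gamma subunits and Camkk2 also fell, Prkaa1 fell by less than in WT, Prkab2 rose more and Stk11 fell more. In limma with Benjamini-Hochberg adjustment over all genes tested, 9 of the 10 members passed an adjusted p of 0.05 in WT, 3 higher and 6 lower. Of all genes tested, 78.6% passed in that comparison, 39.3% higher and 39.2% lower, so most genes of these cells changed and the members' count stands near that share. In RA, 7 of 10 passed, 2 higher and 5 lower, beside 68.7% of all genes, 35% higher and 33.7% lower. Without any 1 library, between 6 and 9 members passed in WT and between 6 and 7 in RA. The members' median difference was -0.18 on the log2 scale in WT and -0.085 in RA, beside 0.0049 and 0.013 over all genes tested. Log2 differences are on the log2(CPM + 1) scale throughout, starved minus normal medium or RA minus WT, with the standard error (SE) of the limma fit.

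**Figure D1:**
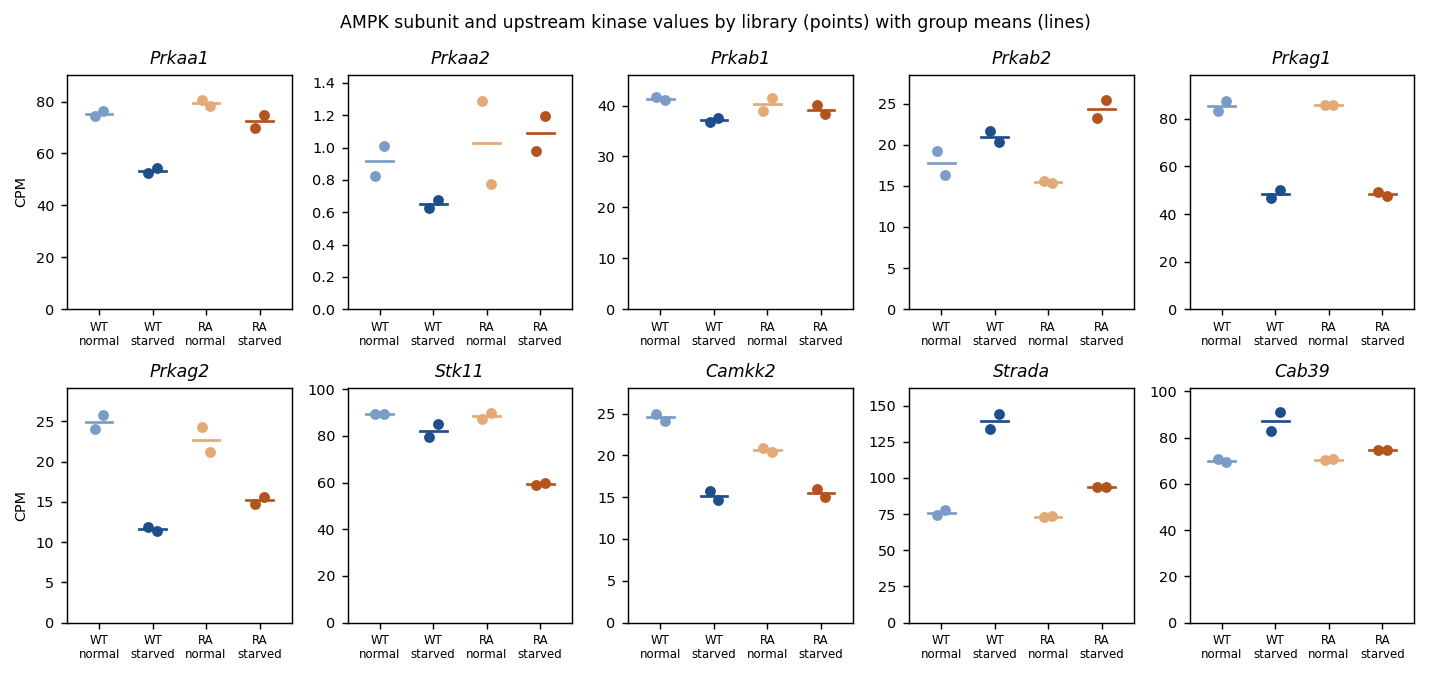
CPM (vertical axes, starting at 0) of the 10 members in each of the 8 libraries, as points, with a line at each group's mean over 2 libraries. Prkag1 fell from between 83.1 and 87.6 CPM to between 46.7 and 50.2 in both lines, while Stk11 stood at 58.8 and 59.6 CPM in starved RA and at 79.5 and 85.0 in starved WT.

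How reads were assigned bears on several of these genes. In GENCODE M21 (mouse build GRCm38), 292 genes of the table with a mean of at least 20 CPM lie nested in the span of another gene with which they share no exon, counted once for each such pair. In 288 of these pairs (98.6%) the outer gene's value was at least as high as the inner one's. On opposite strands this held for 191 of 195 pairs (97.9%). A value therefore appears to count reads over the gene's whole span, introns included and without regard to strand, and a read in a stretch shared by several genes enters each of them. The annotation the authors used may draw the spans differently from GENCODE M21. For Camkk2, Cab39 and Prkaa2, GENCODE M21 places no other gene of the table in the span. Prkag1, at 67.0 CPM on average, shares 3281 bases with the antisense gene B130046B21Rik, which read 63.6 CPM. Prkaa1 (70.1 CPM on average) shares 6815 bases with the antisense gene Gm15938 (54.5 CPM), and Prkab1 (39.5 CPM) shares 2520 with the antisense gene Gm14508 (26.1 CPM). The overlapping genes of Prkag2 (Prkag2os2) and Prkab2 (Gm17651) averaged 3.27 and 3.19 CPM. Reads from a gene and its antisense partner cannot be told apart in these values.

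Like Prkag1, Prkaa1 and Prkab1 above, Strada was exposed to this. Its span of 38839 bases in GENCODE M21 overlaps that of Ccdc47, a gene on the same strand for a protein of the endoplasmic reticulum, by 4761 bases, and that stretch holds 4160 of the 6414 exon bases of Ccdc47 (64.9%). Strada averaged 95.6 CPM over the 8 libraries and Ccdc47 139.2 CPM. The log2 values of the pair ran together over the 8 libraries with a Pearson's r of 0.998, given as a description, since they share reads. The Strada values are reported below as the reads in its span, which may come from either gene. Without Strada, 8 of 9 members passed in WT and 6 of 9 in RA, with Prkag1, Prkaa1 and Prkab1 kept in these counts.

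**Figure D2:**
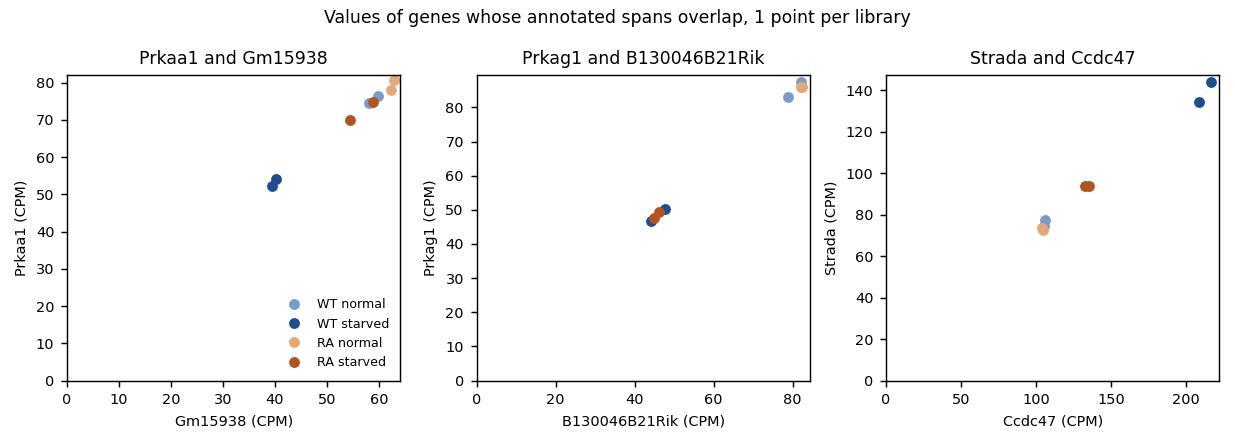
CPM of Prkaa1, Prkag1 and Strada (vertical axes) against the CPM of a gene whose annotated span overlaps theirs (horizontal axes), 1 point per library, coloured by group. In each panel the 8 points lie close to a line, with Pearson's r of 0.999 for Prkaa1, 0.9997 for Prkag1 and 0.998 for Strada on the log2(CPM + 1) scale.

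Among the gamma subunits, which bind the adenine nucleotides, Prkag1 fell alike in both lines. It read 83.1 and 87.6 CPM in WT in normal medium and 46.7 and 50.2 in WT starved, a log2 difference of -0.80 (SE 0.048, adjusted p = 8.26e-11, limma). In RA it read 85.9 and 85.9 CPM in normal medium and 49.3 and 47.6 starved, a difference of -0.81 (SE 0.048, adjusted p = 1.40e-10, limma). The normal and starved libraries did not overlap, as in 88.7% of all genes tested in WT and 83.3% in RA. Between the lines, 53.2% of all genes did not overlap in normal medium and 81.5% under starvation. Libraries that do not overlap were therefore usual, here and for the genes below. Neither medium gave a difference in Prkag1 between the lines that passed the test. The difference between its responses was -0.0090 on the log2 scale (95% interval -0.15 to 0.14), and the sign changed with total-read scaling, quantile normalization and edgeR. The antisense gene B130046B21Rik fell by 0.80 in WT and by 0.84 in RA on the log2 scale.

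Prkag2, the longer gamma subunit best known from the heart, fell in both lines and further in WT. It read 24.0 and 25.8 CPM in WT in normal medium and 11.8 and 11.3 in WT starved, a log2 difference of -1.04 (SE 0.079, adjusted p = 2.12e-09, limma). The RA libraries read 24.2 and 21.2 CPM in normal medium and 14.7 and 15.6 starved, a difference of -0.55 (SE 0.079, adjusted p = 1.01e-05, limma). All starved libraries lay below all those in normal medium, and the starved RA libraries lay above the starved WT ones. The responses differed by 0.49 (SE 0.11, adjusted p = 0.00161, limma interaction), and under starvation Prkag2 was higher in RA by 0.36 (adjusted p = 0.000781), or by 0.20 with quantile normalization (adjusted p = 0.0413, limma). Prkag3, the gamma subunit of skeletal muscle, did not pass the filter, with 0 to 22 reads per library (0 to 0.454 CPM). It was at 0 reads in WT starved replicate 2, where 3 reads are worth 0.0548 CPM.

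Among the alpha subunits, which carry the kinase domain, Prkaa1 fell in WT and much less in RA. It read 74.4 and 76.3 CPM in WT in normal medium and 52.4 and 54.3 in WT starved, a log2 difference of -0.49 (SE 0.047, adjusted p = 3.84e-08, limma). RA cells gave 80.8 and 78.1 CPM in normal medium and 70.002 and 74.8 starved, a difference of -0.13 (SE 0.047, adjusted p = 0.0179, limma). The starved RA libraries lay close to the WT libraries in normal medium, and all 4 starved libraries lay below their own line's normal ones. The call in RA was lost without RA starved replicate 1 (-0.086, adjusted p = 0.209, limma), without RA normal replicate 1 (-0.11, adjusted p = 0.0914, limma) and without the mean-variance trend (adjusted p = 0.0636, limma). Between the lines, the responses differed by 0.36 (SE 0.066, adjusted p = 0.000251, limma interaction), and under starvation Prkaa1 was higher in RA by 0.43 (SE 0.047, adjusted p = 4.45e-07). Gm15938, its antisense partner, moved by -0.55 in WT and -0.14 in RA on the same scale.

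Prkaa2, the alpha subunit prominent in muscle, was close to the lower limit of the table, with 30 to 58 reads per library. It read 0.826 and 1.01 CPM in WT in normal medium, 0.629 and 0.676 in WT starved, 1.29 and 0.775 in RA in normal medium and 0.979 and 1.198 in RA starved. The RA groups overlapped, and neither starvation comparison passed the test (-0.21 in WT, adjusted p = 0.198; 0.050 in RA, adjusted p = 0.781, limma). Under starvation the RA libraries lay above the WT ones, by 0.34 on the log2 scale (95% interval 0.021 to 0.65, adjusted p = 0.0589, limma). That value passed without RA normal replicate 1 (adjusted p = 0.0427, limma) and without RA normal replicate 2 (adjusted p = 0.0419, limma), which enter through the shared spread. It also passed in a fit of only the groups compared (adjusted p = 0.0397, limma) and without the mean-variance trend (adjusted p = 0.0482, limma). With edgeR on halved reads, a setting added after seeing the data, the difference was 0.77 (adjusted p = 0.0463). In the other settings in which Prkaa2 was tested, among them edgeR and DESeq2 on all recovered reads, it did not pass.

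The beta subunits hold the trimer together and bind glycogen, and they moved in opposite directions in WT. Prkab1 read 41.7 and 41.1 CPM in WT in normal medium and 36.8 and 37.6 in WT starved, a log2 difference of -0.15 (SE 0.053, adjusted p = 0.0166, limma). Its RA values were 38.9 and 41.6 CPM in normal medium and 40.03 and 38.4 starved, groups that overlapped (-0.037, adjusted p = 0.552, limma). The responses of Prkab1 were not shown to differ (0.11, 95% interval -0.047 to 0.27, adjusted p = 0.226, limma). The WT call was lost without WT normal replicate 1 (-0.14, adjusted p = 0.0771, limma) and without WT starved replicate 1 (-0.14, adjusted p = 0.0750, limma).

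Prkab2 was the subunit that rose. It read 15.6 and 15.3 CPM in RA in normal medium and 23.3 and 25.4 in RA starved, a log2 difference of 0.62 (SE 0.081, adjusted p = 3.45e-06, limma). In WT it read 19.2 and 16.3 CPM in normal medium and 21.7 and 20.3 starved, a difference of 0.23 (SE 0.081, adjusted p = 0.0157, limma). The starved libraries lay above the normal ones in both lines, and the WT libraries in normal medium spread the most. The WT call was lost without WT normal replicate 2 (0.12, adjusted p = 0.241, limma), without WT starved replicate 1 (0.19, adjusted p = 0.109, limma), with total-read scaling (0.16, adjusted p = 0.0897, limma) and without the filter (adjusted p = 0.0509, limma). The responses differed by 0.39 (SE 0.12, adjusted p = 0.00992, limma interaction). That call was lost without WT normal replicate 1 (0.28, adjusted p = 0.0677, limma), without RA starved replicate 2 (0.33, adjusted p = 0.0557, limma) and with quantile normalization (0.29, adjusted p = 0.0517, limma). Under starvation Prkab2 was higher in RA by 0.21 (adjusted p = 0.0369, limma), which was lost without WT starved replicate 2 (0.16, adjusted p = 0.193, limma) and without RA starved replicate 2 (0.15, adjusted p = 0.247, limma). It was also lost in 5 of the other settings, namely quantile normalization (0.097, adjusted p = 0.325), median-ratio scaling (0.19, adjusted p = 0.0577), DESeq2 (0.20, adjusted p = 0.0732), no mean-variance trend (adjusted p = 0.0735) and no filter (adjusted p = 0.10002, the last 2 in limma).

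**Figure D3:**
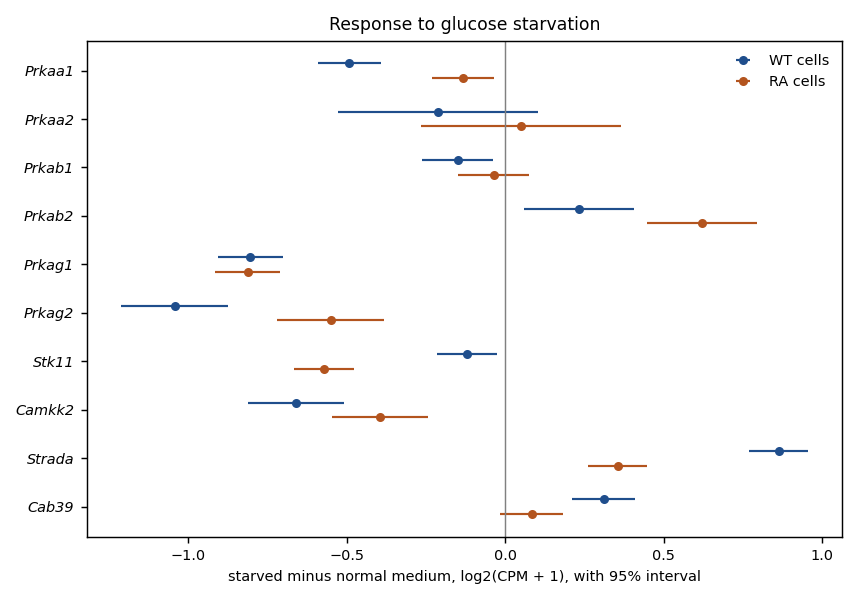
Log2 difference of starved minus normal medium on the log2(CPM + 1) scale (horizontal axis) for the 10 members in WT (blue) and RA (orange), as points with the 95% interval of the limma fit over 2 libraries per group. The intervals of Prkaa1, Prkab2, Prkag2, Stk11, Strada and Cab39 in WT and RA do not overlap, whereas those of Prkag1 lie on each other.

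Levels were compared between subunits per kilobase of exon, with exon lengths from the GENCODE M21 basic set; since reads of introns and neighbours were counted too, these are approximate. In WT in normal medium, the level of Prkag1 was 51.7 ± 1.90 CPM per kilobase (SD, n = 2), that of Prkab1 19.4 ± 0.19, that of Prkaa1 16.2 ± 0.29, that of Prkag2 6.38 ± 0.31, that of Prkab2 3.55 ± 0.41 and that of Prkaa2 0.115 ± 0.016. Each neighbour in this order lay further from the next than their SDs. The order of these 6 was the same in starved WT except that Prkab2 (4.19 ± 0.20) passed Prkag2 (2.97 ± 0.089). The alpha subunits together fell from 16.3 ± 0.30 to 11.5 ± 0.29 CPM per kilobase in WT and from 17.2 ± 0.45 to 15.7 ± 0.75 in RA. The gamma subunits together fell from 58.1 ± 2.21 to 32.3 ± 1.38 CPM per kilobase in WT and from 57.8 ± 0.58 to 33.2 ± 0.54 in RA, so that they remained the highest class. That level rests on Prkag1, whose antisense gene read 94.9% of its value, with 91.5% of that gene's exon bases in the shared stretch. For Prkaa1 and Prkab1 the antisense genes read 77.8% and 66.1%. How much of these levels, their order and the shares below belongs to the antisense genes cannot be told apart. Of the upstream genes, Stk11 stood at 32.0 ± 0.0075 CPM per kilobase in WT in normal medium, Cab39 at 17.7 ± 0.22, the Strada span at 14.4 ± 0.40 and Camkk2 at 4.74 ± 0.12. The beta subunits together stood between 21.6 ± 0.052 (WT starved) and 23.2 ± 0.25 CPM per kilobase (RA starved).

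Within each class 1 gene had most of the reads per kilobase, with any reads of its antisense gene included. Prkaa2 gave at most 0.927% of the alpha subunit level in any library. Prkab2 gave 15.5% ± 1.38 (SD, n = 2) of the beta level in WT in normal medium, 19.4% ± 0.98 in WT starved, 14.1% ± 0.72 in RA in normal medium and 20.97% ± 1.52 in RA starved. Its share was at least 18.7% in each of the 4 starved libraries and at most 16.4% in each of the 4 in normal medium. The log2 ratio of Prkab2 to Prkab1 was 0.54 higher in the starved libraries, with an exact 2-sided permutation p of 0.0286 (4 against 4, the smallest p this design allows), or 0.171 after adjustment over the 6 ratio comparisons. Prkag2 gave 10.99% ± 0.12 of the gamma level in WT in normal medium, 9.19% ± 0.67 in WT starved, 10.1% ± 0.84 in RA in normal medium and 11.7% ± 0.67 in RA starved. None of the other 5 ratio comparisons had a permutation p under 0.371, with the lines or media pooled 4 against 4. Under starvation the log2 ratio of Prkag2 to Prkag1 moved by -0.28 in WT and by 0.25 in RA. Pooling the lines sets these against each other, so that comparison could not show them, and changes of the ratio within 1 line were not tested. With the lengths of the full GENCODE set in place of the basic set, Prkaa1 (16.2 CPM per kilobase in WT in normal medium) stood above Prkab1 (13.5), and the Prkab2 share was 20.51% and 25.4% in WT and 18.8% and 27.2% in RA, in normal and starved libraries.

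**Figure D4:**
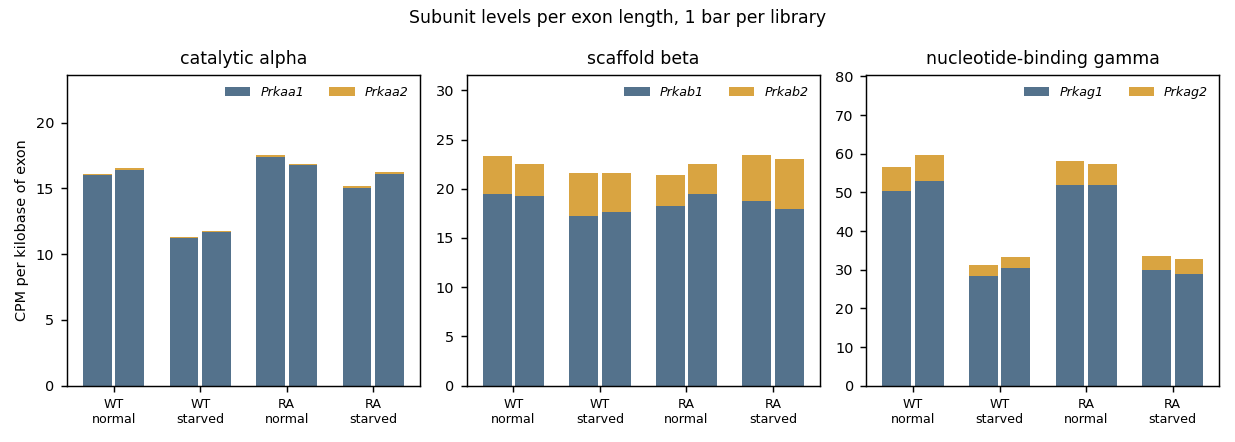
CPM per kilobase of exon (vertical axes, starting at 0) of the alpha, beta and gamma subunits, stacked by gene, with 1 bar per library and 2 libraries per group. The gamma bars are lower in all 4 starved libraries, the alpha bars are lowest in starved WT, and the beta bars stay between 21.4 and 23.4.

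Stk11 encodes LKB1, the main kinase upstream of AMPK in most cells, and its RNA fell chiefly in RA. It read 89.4 and 89.4 CPM in WT in normal medium and 79.5 and 85.0 in WT starved, a log2 difference of -0.12 (SE 0.044, adjusted p = 0.0200, limma). In RA it read 87.2 and 89.9 CPM in normal medium and 58.8 and 59.6 starved, a difference of -0.57 (SE 0.044, adjusted p = 4.82e-09, limma). The starved RA libraries stood apart below all 6 others. Between the lines, the responses differed by -0.45 (SE 0.063, adjusted p = 1.60e-05, limma interaction), and under starvation Stk11 fell by 0.47 (log2) from WT to RA (adjusted p = 1.02e-07). The call in WT was lost without WT starved replicate 1 (-0.073, adjusted p = 0.206, limma), without WT normal replicate 1 (-0.12, adjusted p = 0.0711, limma) without WT normal replicate 2 (-0.12, adjusted p = 0.0714, limma) and without the mean-variance trend (adjusted p = 0.0669, limma), while the difference was -0.19 with total-read scaling or quantile normalization. Stk11 shares 232 bases with Cbarp on the opposite strand, whose values of 11.5 to 19.4 CPM went the other way.

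Cab39 encodes MO25, which holds LKB1 and STRADA in their active form. It read 70.6 and 69.3 CPM in WT in normal medium and 82.9 and 91.2 in WT starved, a log2 difference of 0.31 (SE 0.047, adjusted p = 1.27e-05, limma). The RA libraries read 70.3 and 70.6 CPM in normal medium and 74.7 and 74.8 starved, groups that did not overlap but whose difference of 0.083 did not pass (SE 0.047, adjusted p = 0.127, limma). Under starvation Cab39 fell by 0.22 (log2) from WT to RA (adjusted p = 0.000777). The responses differed by -0.23 (SE 0.067, adjusted p = 0.00943, limma interaction), which was lost without WT starved replicate 2 (-0.16, adjusted p = 0.0593, limma), with total-read scaling (-0.16, adjusted p = 0.0575, limma), with quantile normalization (-0.17, adjusted p = 0.0505, limma) and without the mean-variance trend (adjusted p = 0.0549, limma).

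The reads in the span of Strada, the pseudokinase partner of LKB1, rose in both lines. They came to 74.5 and 77.5 CPM in WT in normal medium and 134.1 and 144.0 in WT starved, a log2 difference of 0.86 (SE 0.044, adjusted p = 8.64e-12, limma). In RA they came to 72.8 and 73.7 CPM in normal medium and 93.8 and 94.0 starved, a difference of 0.35 (SE 0.044, adjusted p = 1.75e-06, limma). Ccdc47 read 105.2 and 106.0 CPM in WT in normal medium, 208.8 and 216.8 in WT starved, 104.6 and 103.9 in RA in normal medium and 132.9 and 135.2 in RA starved. Its log2 differences were 1.004 in WT and 0.36 in RA, and the responses differed by -0.64 for Ccdc47 and by -0.51 for Strada (adjusted p = 4.64e-08 and 4.01e-06, limma interaction). Which of the genes the Strada difference belongs to cannot be told apart.

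Camkk2, the calcium-dependent kinase upstream of AMPK, fell in both lines to much the same level. It read 25.003 and 24.1 CPM in WT in normal medium and 15.8 and 14.6 in WT starved, a log2 difference of -0.66 (SE 0.072, adjusted p = 2.28e-07, limma). RA cells gave 20.9 and 20.4 CPM in normal medium and 15.9 and 14.99 starved, a difference of -0.39 (SE 0.072, adjusted p = 0.000118, limma). The starved groups overlapped, and in normal medium the RA libraries lay below the WT ones. Between the lines, the responses differed by 0.27 (SE 0.10, adjusted p = 0.0382, limma interaction), which did not hold without WT normal replicate 1 (0.24, adjusted p = 0.114, limma), WT normal replicate 2 (0.29, adjusted p = 0.0587), WT starved replicate 2 (0.22, adjusted p = 0.127), RA normal replicate 1 (0.28, adjusted p = 0.0512), RA normal replicate 2 (0.25, adjusted p = 0.0848) or RA starved replicate 1 (0.22, adjusted p = 0.132). It was lost as well with quantile normalization (0.13, adjusted p = 0.290, limma), with DESeq2 (0.28, adjusted p = 0.0698) and without the filter (adjusted p = 0.0525, limma).

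In normal medium the lines differed in 1 of the 10 members, Camkk2, which fell by 0.24 (log2) from WT to RA (SE 0.072, adjusted p = 0.0449, limma). Of all genes tested, 9.63% passed in this comparison, 6.68% higher and 2.95% lower in RA. The Camkk2 call did not hold without WT normal replicate 1 (-0.22, adjusted p = 0.247, limma), WT normal replicate 2 (-0.27, adjusted p = 0.115), RA normal replicate 1 (-0.26, adjusted p = 0.0758), RA normal replicate 2 (-0.22, adjusted p = 0.166), RA starved replicate 1 (adjusted p = 0.0586) or RA starved replicate 2 (adjusted p = 0.0580), nor without the filter (adjusted p = 0.0923) or the mean-variance trend (adjusted p = 0.0751). Under starvation 6 members differed, 3 higher in RA (Prkaa1, Prkab2, Prkag2) and 3 lower (Stk11, Strada, Cab39), beside 62.9% of all genes, 30.8% higher and 32.1% lower. The response to starvation differed between the lines in 7 members, beside 50.6% of all genes. For 4 of them (Prkaa1, Prkab2, Prkag2, Camkk2) the difference was positive, beside 24.5% of all genes, and for 3 (Stk11, Strada, Cab39) it was negative, beside 26.1%. The starvation and line comparisons share their libraries, so these counts are not independent of each other. Ruvbl1 was higher in RA in normal medium by 0.29 (adjusted p = 0.00946, limma), a call lost without the filter or the mean-variance trend. Under starvation it was higher in RA by 0.59 to 0.66 with 1 library left out. Its responses differed by 0.34 (adjusted p = 0.00568, limma interaction). The lines thus differed in the amount of this RNA as well as in Pontin form, and its part was not tested.

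The promoters of a subunit that fell alike in both lines (Prkag1), a subunit that fell mainly in WT (Prkaa1) and the kinase that fell mainly in RA (Stk11) are shown so that their sequence can be read beside the values. Promoter windows of 300 bases from RefSeq (build GRCm38.p6; 250 bases before to 50 after each start) were found for all 10 members, 12 windows in all because Prkag2 has 3. Stretches before the start that overlap no annotated exon are printed 5′ to 3′ on the gene's strand, with capitals marking the GC box GGGCGG and the CCAAT box on either strand. The Prkag1 stretch lies at chr15:98831522-98831668 (minus strand), the Prkaa1 stretch at chr15:5143611-5143860 (plus strand) and the Stk11 stretch at chr10:80115545-80115794 (plus strand).
Prkag1: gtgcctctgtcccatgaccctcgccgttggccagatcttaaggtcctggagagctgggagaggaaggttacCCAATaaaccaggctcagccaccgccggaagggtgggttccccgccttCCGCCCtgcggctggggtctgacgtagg
Prkaa1: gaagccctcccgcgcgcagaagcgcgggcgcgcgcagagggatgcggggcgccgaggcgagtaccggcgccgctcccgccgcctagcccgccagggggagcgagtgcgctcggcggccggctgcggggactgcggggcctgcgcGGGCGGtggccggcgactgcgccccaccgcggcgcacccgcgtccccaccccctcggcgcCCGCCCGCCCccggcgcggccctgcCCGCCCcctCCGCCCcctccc
Stk11: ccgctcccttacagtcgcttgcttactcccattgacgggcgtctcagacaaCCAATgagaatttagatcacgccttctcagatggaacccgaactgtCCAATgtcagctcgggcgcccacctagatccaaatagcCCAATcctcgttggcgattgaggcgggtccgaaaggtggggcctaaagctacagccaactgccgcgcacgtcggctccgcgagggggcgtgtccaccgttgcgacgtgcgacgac

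The Prkaa1 stretch holds 5 GC boxes (2 of them overlapping) and no CCAAT box, the Stk11 stretch 3 CCAAT boxes and no GC box, and the Prkag1 stretch 1 of each. The GC box was found in 10 of the 12 windows of members, beside 35.7% of the 32851 windows of all genes. By gene, 9 of the 10 members had it, Prkab1 being the exception. The CCAAT box was found in 5 of the 12 windows of members, beside 37.4% of all windows, and the 5 belong to 4 members (Camkk2, Prkag1, Prkag2, Stk11). The E-box CACGTG, the core of the motif that TFEB binds, was in no window of a member and in 7.15% of all windows. The FOXO motif TGTTTAC, searched on both strands, was in 1 window of a member, that of Stk11, and in 3.65% of all windows. It lies on the opposite strand, at base 17 counted from 1 at the RefSeq start. The 27 bases that hold it, at chr10:80115801-80115827, are printed with the motif in capitals.
Stk11 site: gcgcagggcgGTAAACAagatggcggc

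A match of letters is a description of the sequence and not a bound site. The members with a CCAAT box include genes that fell in both lines and one that fell mainly in RA, and GC boxes are in windows of genes that rose and genes that fell.

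The further upstream kinases and LKB1 partners were Map3k7 (TAK1), Camkk1, Stradb and Cab39l (MO25 beta), the close relatives of the members above. Map3k7 read 100.1 and 99.9 CPM in WT in normal medium and 146.0 and 145.3 in WT starved, a log2 difference of 0.54 (SE 0.038, adjusted p = 8.50e-10, limma). Its RA values were 104.0 and 100.9 CPM in normal medium and 110.2 and 109.0 starved, a difference of 0.097 (adjusted p = 0.0329, limma). That call in RA was lost without RA normal replicate 2 (0.075, adjusted p = 0.145, limma), RA starved replicate 1 (0.090, adjusted p = 0.140) or RA starved replicate 2 (0.10, adjusted p = 0.0874), and with edgeR and DESeq2. The responses of Map3k7 differed by -0.44 (SE 0.054, adjusted p = 4.27e-06, limma interaction). Camkk1 fell by 0.58 on the log2 scale in WT and by 0.40 in RA, and Cab39l fell by 0.30 and by 0.39. Stradb read 9.39 and 9.39 CPM in WT in normal medium and 6.81 and 8.40 in WT starved (-0.28, adjusted p = 0.0200, limma), a call lost without WT starved replicate 1 (-0.14, adjusted p = 0.256, limma), WT normal replicate 1 (adjusted p = 0.0649) or WT normal replicate 2 (adjusted p = 0.0644), with quantile normalization (-0.14, adjusted p = 0.201) and without the filter (adjusted p = 0.0512). Of the 8 upstream kinases and partners in all, 3 rose and 5 fell in WT (100%, beside 78.6% of all genes), and 2 rose and 4 fell in RA (75%, beside 68.7%).

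The chain placed downstream of AMPK in starved fibroblasts runs from FOXO3a (Foxo3), a transcription factor that AMPK phosphorylates, through SKP2, a ubiquitin ligase subunit, to the arginine methyltransferase CARM1. Foxo3 read 17.5 and 17.0 CPM in WT in normal medium and 38.5 and 34.4 in WT starved, a log2 difference of 1.04 (SE 0.076, adjusted p = 1.38e-09, limma). In RA it read 18.6 and 16.2 CPM in normal medium and 20.7 and 21.2 starved, a difference of 0.26 (SE 0.076, adjusted p = 0.00669, limma), which was lost without RA normal replicate 2 (0.16, adjusted p = 0.0962, limma). The responses of Foxo3 differed by -0.78 (SE 0.11, adjusted p = 1.62e-05, limma interaction). Skp2 fell alike in both lines, by 1.25 in WT and by 1.22 in RA on the log2 scale, and the responses differed by 0.038 (95% interval -0.10 to 0.18). Carm1 RNA fell by 0.18 in WT and by 0.30 in RA on the log2 scale. It went from 149.1 and 141.5 CPM to 130.1 and 126.1 in WT, and from 133.7 and 138.3 to 110.2 and 111.0 in RA. In this chain the study describes CARM1 as a protein that SKP2 degrades and whose level rises in starved cells. The RNA values do not measure that protein. Skp2, Carm1 and Cab39l share parts of their spans with Lmbrd2, Yipf2 and Cdadc1 on the opposite strand, which averaged 24.9, 49.0 and 23.8 CPM.

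Of 21 genes for known AMPK substrates, 11 rose and 7 fell in WT (median log2 difference 0.24) and 11 rose and 6 fell in RA (median 0.11), beside medians over all genes of 0.0049 and 0.013. These are 85.7% and 81% of the list, beside 78.6% and 68.7% of all genes tested. The highest value in both lines was that of Fnip1, a partner of folliculin that AMPK phosphorylates, at 2.04 in WT and 1.42 in RA on the log2 scale. The lowest was that of Txnip, an inhibitor of glucose uptake, at -3.60 in WT and -3.63 in RA. Txnip fell from 24.9 and 24.5 CPM to 1.26 and 0.987 in WT and from 40.4 and 36.3 to 1.998 and 2.35 in RA, and its span lies whole within the antisense gene Gm15441. The response differed between the lines in 13 of the 21 (61.9%, beside 50.6% of all genes), most negatively for Ulk1, the autophagy kinase (-0.80, adjusted p = 2.04e-07, limma interaction). Ulk1 rose from 33.6 and 33.4 CPM to 72.5 and 71.8 in WT and from 34.2 and 31.3 to 40.7 and 39.5 in RA. Under starvation Ulk1 also had the lowest value of the list, at -0.83, RA minus WT, and in normal medium only Txnip of the 21 passed (0.61, adjusted p = 0.00123, limma; 2 of the 21 passed without RA normal replicate 1), which is 4.76% of the list beside 9.63% of all genes.

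**Figure D5:**
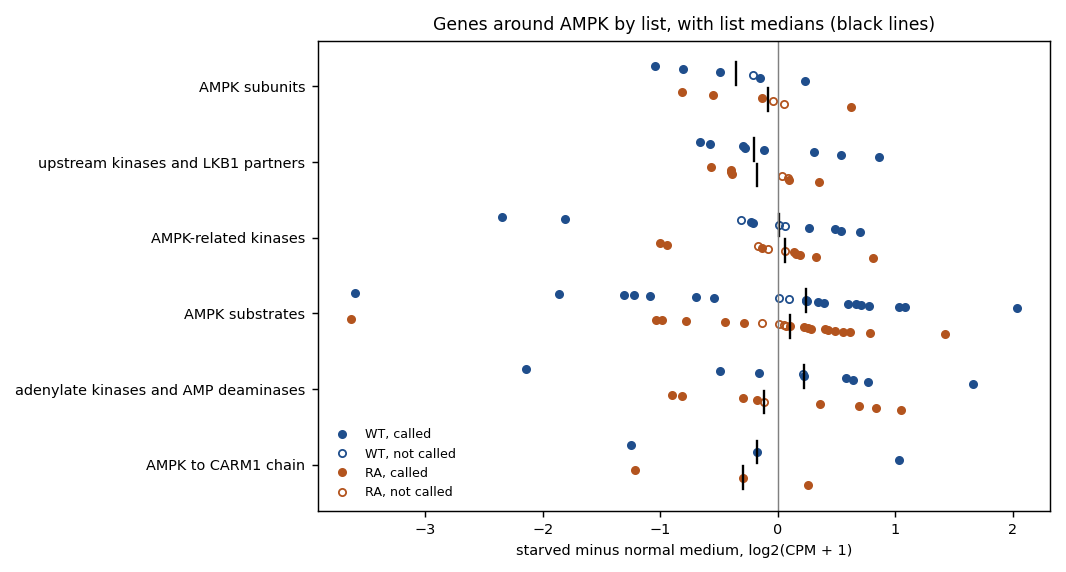
Log2 difference of starved minus normal medium on the log2(CPM + 1) scale (horizontal axis) for every tested gene of 6 lists around AMPK, in WT (blue) and RA (orange), filled where the limma test passed and open where it did not, with a black line at each list's median. The AMPK subunits have the lowest median in WT, at -0.35, and the AMPK substrates spread furthest, from -3.60 to 2.04.

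The AMPK-related kinases, a family that LKB1 also activates, had 11 of 12 genes tested, of which 4 rose and 4 fell in WT (median 0.012) and 5 rose and 3 fell in RA (median 0.064; 5 of 11 passed without the mean-variance trend). In each line 72.7% of them passed, beside 78.6% of all genes in WT and 68.7% in RA. Snrk had the highest value in both lines, at 0.70 in WT and 0.81 in RA. The lowest was Nuak2 in WT, at -2.35, and Nuak1 in RA, at -0.9997. Nuak2 read 21.2 and 21.5 CPM in WT in normal medium, 3.39 and 3.398 in WT starved, 20.05 and 19.7 in RA in normal medium and 10.3 and 9.42 in RA starved, and its responses differed by 1.40 (SE 0.12, adjusted p = 6.78e-08, limma interaction). The most negative difference between responses was that of Mark2 (-0.38, adjusted p = 0.000795, limma). Under starvation the same pair marked the ends of the list, with Nuak2 higher in RA by 1.303 and Mark2 at -0.43 on the log2 scale.

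Adenylate kinases and AMP deaminases set the AMP that the gamma subunits read. Of 9 such genes, 5 rose and 3 fell in WT (median 0.23), and 4 rose and 4 fell in RA (median -0.12), which is 88.9% of the list in each line, beside 78.6% of all genes in WT and 68.7% in RA. Ak1, the cytosolic adenylate kinase, read 28.2 and 30.1 CPM in WT in normal medium, 6.37 and 5.33 in WT starved, 33.2 and 34.4 in RA in normal medium and 17.5 and 17.7 in RA starved. Ak4, a mitochondrial member, went the other way, from 7.57 and 9.15 CPM to 27.7 and 29.3 in WT and from 8.78 and 8.02 to 13.3 and 15.1 in RA. The responses differed by 1.24 for Ak1 and by -0.97 for Ak4 (adjusted p = 1.43e-07 and 2.07e-05, limma interaction), so that both genes moved further in WT. The highest value in RA was that of Ampd3, an AMP deaminase, at 1.05 on the log2 scale. Ampd3 averaged 11.1 CPM and shares 11974 bases of its span with Rnf141 on the opposite strand, which averaged 30.8 CPM. Rnf141 read 31.4 and 30.4 CPM in RA in normal medium and 36.5 and 41.6 in RA starved, and its part in the Ampd3 value was not tested. Under starvation RA and WT differed by 1.44 for Ak1 and by -0.96 for Ak4. In normal medium only Ampd2 of these 9 passed (-0.14, adjusted p = 0.0383, limma; 2 of the 9 passed with edgeR or DESeq2), and it was lost without either WT normal library, either RA normal library or either RA starved library (adjusted p from 0.0544 to 0.231, limma).

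The genes whose pattern was most like each member's were ranked by Pearson's r on the log2(CPM + 1) scale over the 8 libraries, among 10489 genes with a mean of at least 10 CPM. For Prkag1 the first was its antisense partner B130046B21Rik (0.9997), followed by Cks2, a cell-cycle kinase subunit (0.999), and Fanci, of the Fanconi DNA repair pathway (0.999). For Prkaa1 it was its antisense partner Gm15938 (0.999), then Dtwd1 (0.995) and Mcat (0.994), and for Prkag2 Heatr5a (0.997), Spry4 (0.997) and Fam114a1 (0.997). For Stk11 the first were Slbp, the histone mRNA binding protein (0.994), Pcolce2 (0.993) and Kdelr2 (0.992). Camkk2 ran with Zfp395 (0.989) and Slc5a3 (0.989), and Cab39 with Mrpl55 (0.986), Ubxn4 (0.981) and Gnl3 (0.981). Strada ran with 1810014B01Rik (0.999), Pnrc1 (0.999) and Hsp90b1, a chaperone of the endoplasmic reticulum (0.999). Prkab1 ran with Ppm1m (0.986), Wdr54 (0.9745) and Jup (0.962), and Prkab2 with Klhl26 (0.986), Cabin1 (0.983) and Klf3 (0.977). The lowest likeness was that of Prkaa2, with Mrpl48 (0.939), Spred1 (0.913) and Gm43511 (0.911). With 8 libraries in 4 groups and so many genes that changed with the medium, high values of r are common, so they describe the pattern only.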

How the data were processed

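Poly(A) RNA was made into TruSeq libraries and sequenced as paired ends on a HiSeq 4000; the submitters' notes name TopHat2 2.0.9, bedtools, edgeR and the mouse build mm9. The gene annotation, the counting settings and the handling of strand are not given in the sources used here. The authors deposited a signal per gene, in CPM of a library size scaled per sample; columns named minus and plus were read as normal and starved. In every sample 100% of the low values were whole reads (within 0.1), with 78.2 to 80.5% even among counts from 1 to 9, so mates may have been counted separately. A value of 3 reads was 0.0548 to 0.069 CPM, which covers counting error only. Planned as CPM, the values were tested the same way.

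The test took every gene that reached a value of 1 in 2 or more samples, on log2(value + 1), which understates changes of low genes, with limma 3.58.1 (R 4.3.3; group means over 8 samples, mean-variance trend, 2-sided, Benjamini-Hochberg adjustment over 16232 genes, threshold 0.05). The 5 comparisons were starvation in each line, RA against WT in each medium, and their interaction. Alternatives were other pseudocounts, filters and scalings, edgeR 4.0.16 and DESeq2 1.42.0 on the recovered reads, a replicate block and each library left out. Halved reads, full-set exon lengths and counts without Strada were added after seeing the data. The script for limma was tested on simulated data. Paralog ratios, log2 of (value + 0.1), were compared by exact 2-sided permutation over 70 arrangements. Sequences came from RefSeq, spans and exon lengths from GENCODE M21; no coordinates were converted from mm9. The members and gene lists were chosen with earlier results of these data known. All members are named, with the genes of the upstream list and of the chain to CARM1, the called gene with the highest and lowest difference of each other list, and the 3 genes most like each member. Some results that this rule would name are not reported here.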

Additional observations from a re-analysis of the deposited data

Results flagged for a closer look

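In 7 members the response to starvation differed between the WT and RA lines by the interaction term of limma, given as the response in RA minus that in WT on the log2 scale. The differences were 0.36 for Prkaa1, 0.39 for Prkab2, 0.49 for Prkag2, 0.27 for Camkk2, -0.45 for Stk11, -0.51 for Strada and -0.23 for Cab39. The same test passed in 50.6% of all genes, the Strada value rests on a span shared with Ccdc47, and Prkaa1 shares part of its span with the antisense gene Gm15938, whose own difference was 0.41. Those of Prkaa1, Prkag2, Stk11 and Strada passed in all 20 alternatives run for them, leaving aside the added 1.5-fold threshold.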

How the results depend on the processing

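Of the 30 member differences that passed, 21 also passed under every alternative but the added 1.5-fold threshold, and none of the 30 changed sign. With an added threshold of 1.5-fold, 4 members passed for starvation in WT, 2 in RA, and 0 for RA against WT in either medium and for the interaction. The 1 member in normal medium fell to 0 without the filter and without the mean-variance trend (limma), and quantile normalization left 4 members in the interaction. Leaving out 1 library gave 0 to 1 members in normal medium. With a replicate block the counts were 9, 7, 1, 6 and 7, as without it; same-numbered libraries deviated together with correlations of -0.0076 to 0.16, so the numbers were not taken as pairs, and the block changed no call of a member. Sign changes were limited to differences that had not passed. For RA against WT in normal medium Prkag1 was at -0.038 with total-read scaling, -0.021 with quantile normalization, -8.02e-05 with edgeR and -0.0074 with DESeq2, and Cab39 at -0.036, -0.015 and, with DESeq2, -0.0046. Under starvation Prkag1 was at -0.018 with median-ratio scaling and -0.016 with DESeq2, and Camkk2 at -0.12 with quantile normalization. The Prkag1 interaction was 0.062 with total-read scaling, 0.032 with quantile normalization, 0.020 with edgeR and 0.019 with edgeR on halved reads. With a pseudocount of 1 the ratio of Prkaa2 to Prkaa1 was -0.050 for RA minus WT and that of Prkag2 to Prkag1 0.012 for starved minus normal. Permuting within the other factor cannot give a p below 0.0556. Without 1 library the latter ranged from -0.10 to 0.074 and the ratio of Prkab2 to Prkab1 for RA minus WT from -0.15 to 0.13. For the differences that had not passed, leaving out 1 library gave -0.13 to 0.23 for Prkaa2 and -0.083 to 0.0090 for Prkab1 for starvation in RA. For RA against WT in normal medium it gave -0.11 to 0.26 for Prkaa2, -0.085 to 0.0073 for Prkab1, -0.028 to 0.046 for Prkag1, -0.036 to 0.0074 for Stk11 and -0.0012 to 0.024 for Cab39. For RA against WT under starvation it gave -0.050 to 0.051 for Prkag1 and -0.026 to 0.076 for Camkk2, and for the interaction -0.059 to 0.041 for Prkag1. The cause of these changes was not tested. Prkaa2 and Prkag3, at 58 reads or fewer, are limited by depth.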
